A study of Mus musculus with 16 samples.

Results

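The shared response of aged mouse muscle to ursolic acid and tomatidine was taken as the mean of 2 supplemented diets minus the control diet, with each compound given equal weight. All 16 mice of the series enter it, 11 supplemented mice (6 given ursolic acid and 5 given tomatidine) and 5 control mice, and all 25697 probes were tested. Ursolic acid is a plant triterpenoid of fruit peel, and tomatidine is an alkaloid of the tomato with a steroid skeleton. Male C57BL/6 mice ate standard chow, or the same chow with 0.27% ursolic acid or with 0.05% tomatidine, from 22 months of age for 2 months, and the quadriceps femoris was taken at 24 months. Every group was aged, so no value here compares old muscle with young muscle. The 2 doses differ, and the pooled value is therefore a mean over 2 compounds at 2 doses and no comparison at matched dose.

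Muscle loses mass and force with age, and the fast fibres that make up most of the mouse quadriceps are the ones most affected. The size of a fibre is set by the balance between protein synthesis, which needs ribosomes, initiation factors and charged tRNAs, and protein breakdown, in which ubiquitin ligases mark proteins for the proteasome. The force of a fibre depends on the sarcomere, on the calcium release that couples excitation to contraction, and on ATP from glycolysis and from the respiratory chain of the mitochondria. ATF4 is a transcription factor of the amino acid stress response that activates genes for tRNA synthetases, amino acid transporters and initiation factors, and it has been studied as a mediator of muscle atrophy.

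The array medians lay between 8.02 and 8.03 on the log2 scale, and the lowest signal of an array lay between 7.87 and 7.90. Of all probes, 76.8% had a mean under 8.5, close to that lowest signal, where a log2 change is compressed. The fibre genes Acta1, Ckm, Pvalb and Mylpf had means of 15.13, 15.12, 15.18 and 15.27, among the highest of all probes. Tomatidine mouse 4 stood apart on the leading principal component (25.7% of the variance) with a score of 14.6, and tomatidine mouse 3 and control mouse 5 came next at 7.11 and 5.84. On the next component (16.1%) control mouse 1 scored highest, at 9.99, followed by control mice 5 and 4 at 6.54 and 5.05. In whole muscle, fewer cells of a type and less RNA per cell cannot be told apart.

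At an adjusted p of 0.1 or less, the threshold of the study, 57 probes of 25697 (0.222%) changed with both compounds against control, 17 higher (0.0662%) and 40 lower (0.156%), and these are called below. They stand for 55 genes. At an unadjusted p of 0.025 or less, the other threshold of the study, there were 1566 probes (6.09%), 667 higher (2.60%) and 899 lower (3.50%), and rose and fell are used below of such probes. The called changes were small. Their median size was 0.16 on the log2 scale, or 1.12-fold, 10 were over 0.25, and 1 was over 0.5. Of the 57 called probes, 13 had a mean under 8.5, and among brighter probes 0.740% were called against 0.0658% of dimmer ones. Such dim probes made up 76.8% of all probes and 43.2% of those at the unadjusted threshold. In a separate fit of the brighter probes alone, 346 of 5949 were higher and 431 lower at that threshold. The lists below are counted in the fit of all probes, so these counts are no exact yardstick for them. Several lists below hold mostly brighter genes, such as 51 of 59 for cytosolic ribosomal proteins and 35 of 43 for complexes II to V. For these the share over all genes is a low yardstick. The adjusted p was 0.0821 for 37 of the called probes, 53 were called at 0.09, 10 at 0.08 and 1 at 0.05.

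**Figure D1:**
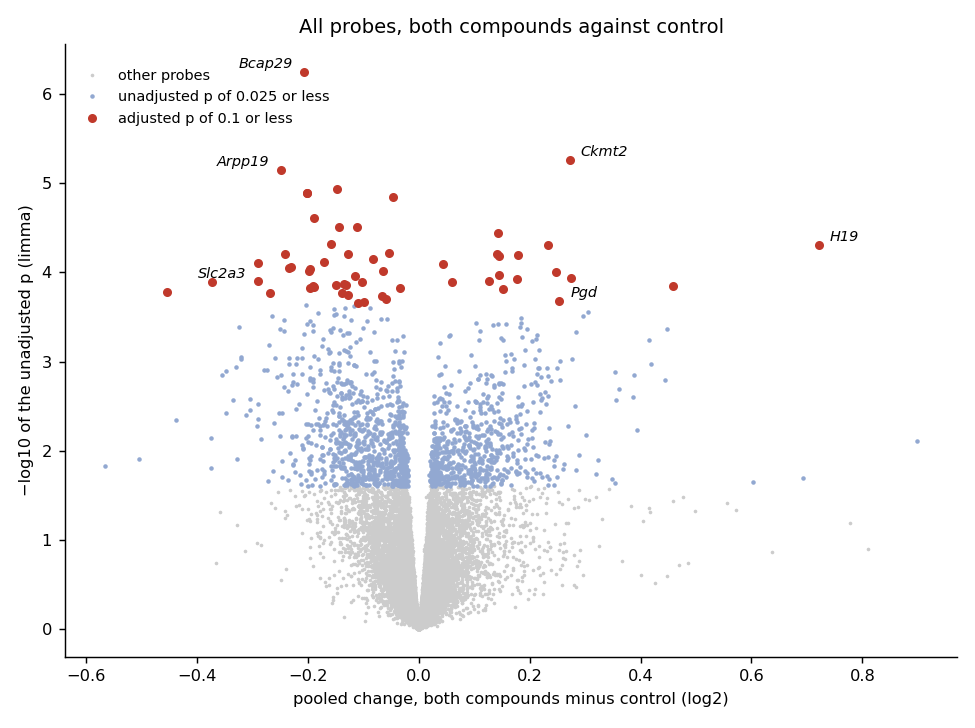
Pooled change of every probe (horizontal axis, log2, both compounds minus control) against −log10 of its unadjusted p from limma (vertical axis). The 57 called probes are red, H19 lies farthest to the right of them at 0.72, and Bcap29 has the lowest p.

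The number of called probes turned on single mice. Without control mice 1, 2, 3, 4 or 5 it was 2, 14, 29, 3 and 188. Without tomatidine mice 1, 3, 4 or 5 it was 150, 1, 14 and 1, and without ursolic acid mice 4 or 6 it was 1 and 9, while leaving out any other mouse gave 45 to 50. Without tomatidine mice 3 and 4 together, a choice made after the data were seen, 4 probes were called. In all 16 of these fits with 1 mouse left out, each of the 57 probes kept its direction and an unadjusted p of 0.025 or less. The 57 were selected with all 16 mice, so this is close to what the selection sets and is no separate evidence. The number of probes at that unadjusted threshold stayed between 1183 and 1803. Bcap29 was the probe called in all 16.

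**Figure D2:**
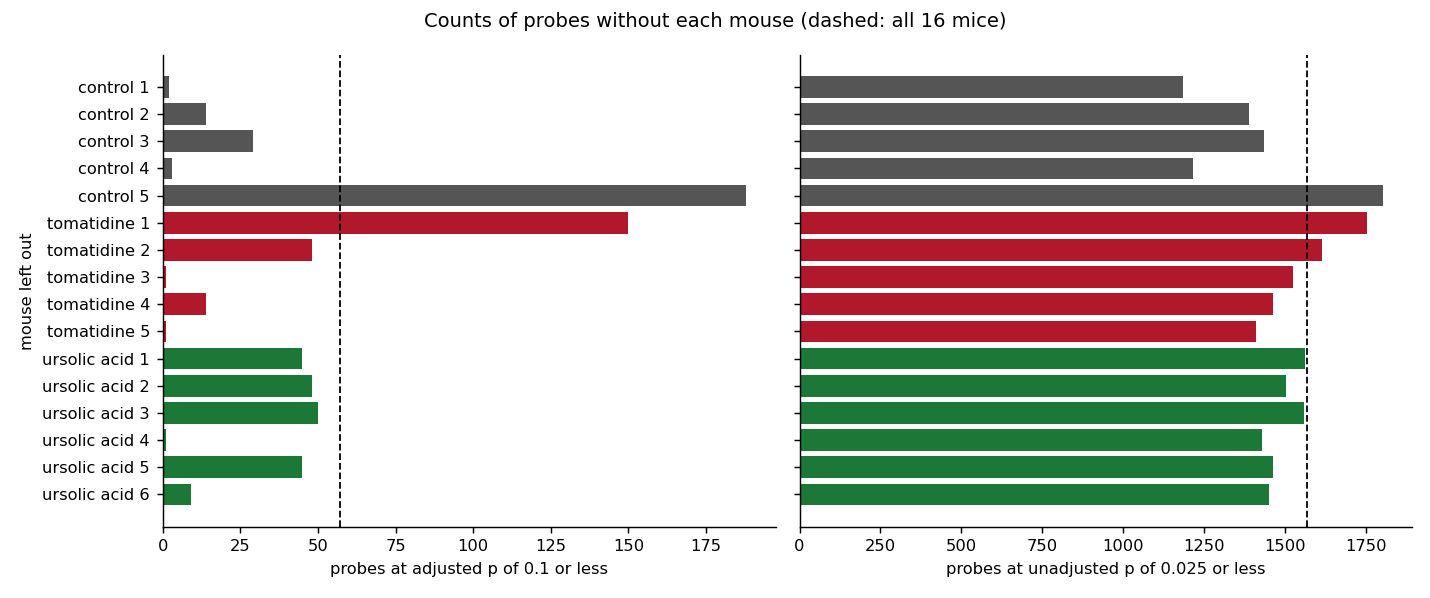
Number of probes at each threshold (horizontal axes) when the mouse named on the vertical axis is left out, with grey bars for control, red for tomatidine and green for ursolic acid mice. The dashed lines mark 57 and 1566, the counts with all 16 mice.

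The largest called rise was H19, an imprinted RNA without a protein product that is expressed from the maternal chromosome and is abundant in developing muscle. Its log2 signals were 10.12, 10.55, 10.67, 10.39 and 10.45 in the control mice and 10.92, 11.05, 11.41, 11.53 and 11.65 in the tomatidine mice, and the ursolic acid mice ran from 10.78 through a median of 10.94 to 11.32. Every supplemented mouse lay above every control mouse. The pooled change of H19 was 0.72 ± 0.13 (SE), or 1.65-fold (limma, adjusted p = 0.0821), with 0.57 for ursolic acid and 0.87 for tomatidine. Igf2, the paternally expressed growth factor gene that neighbours H19, had a pooled change of 0.35 (unadjusted p = 0.0229), and this p went up to 0.0580 among the alternatives and missed the threshold without 11 of the 16 mice, each left out alone. Of 11 measured genes of a list of imprinted growth genes, Igf2 was the 1 that rose and 0 fell. The probe of H19 was named through the supplementary tables of the study and does not stand in that list.

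Defence and redox genes followed. Mgst1, a glutathione S-transferase of the endoplasmic reticulum and mitochondrial membranes, was called by both of its probes. The brighter Mgst1 probe read 10.12, 10.56, 10.47, 10.24 and 10.44 in control, 10.73, 10.65, 10.78, 10.90 and 11.05 with tomatidine, and 10.57 to 11.02 with ursolic acid, with a median of 10.89. No supplemented mouse overlapped a control mouse, although the lowest ursolic acid mouse lay just above the highest control mouse. By this probe Mgst1 was higher by 0.46 ± 0.09 (SE), or 1.37-fold, and by the dimmer probe by 0.27 ± 0.05 (limma, adjusted p = 0.0821 for both). Pgd encodes 6-phosphogluconate dehydrogenase, which makes NADPH in the pentose phosphate pathway. Its pooled change was 0.25 ± 0.05 (SE, adjusted p = 0.0979), with 0.15 for ursolic acid and 0.35 for tomatidine. Its 5 tomatidine mice lay above the control mice, while ursolic acid mice overlapped them. Of 25 measured genes of the pentose phosphate pathway and glutathione defence, 3 rose and 0 fell, a share of 12% where 2.98% of all 16590 genes rose and 3.71% fell by their brightest probe, the probe used for every list, and 0.0603% and 0.163% were called higher and lower. These were Mgst1, Pgls and Tkt, and Tkt was 0.22 with tomatidine and -0.00 with ursolic acid, so its rise was not shared. Pgd was named through the same supplementary tables as H19 and is not in that count. Without control mice 1, 3 or 4 the unadjusted p of Tkt was 0.0536, 0.0349 and 0.0468.

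Among mitochondrial genes, Ckmt2 had the smallest p of all that rose. It encodes the sarcomeric mitochondrial creatine kinase, which passes the phosphate of ATP to creatine. Its called probe read 14.00, 14.21, 14.21, 13.96 and 14.00 in control, 14.32, 14.38, 14.35, 14.30 and 14.41 with tomatidine, and 14.28 to 14.40 with ursolic acid, with a median of 14.35. All 11 supplemented mice lay above the 5 control mice. Ckmt2 was higher by 0.27 ± 0.04 (SE), or 1.21-fold (limma, adjusted p = 0.0528), and its other, brighter probe had 0.23 (adjusted p = 0.170). Trak2, an adaptor that links mitochondria to kinesin for transport, had 0.25 ± 0.05 by 1 of its 3 probes, and the other two had 0.08 and -0.00 and did not pass. Timm21, a subunit of the import machinery of the inner membrane, had 0.18 ± 0.03 by its called probe, 0.19 by its brightest (adjusted p = 0.371), and did not pass by the 2 others. Atp5j, a subunit of ATP synthase, had 0.13 ± 0.02 by its brightest probe, and its 2 dimmer probes did not pass. Mrpl3 and Mrps31, proteins of the mitochondrial ribosome, had 0.18 and 0.14 by their brightest probes, and the 3 other Mrps31 probes did not pass (adjusted p = 0.0821 for the called probes of these 5 genes).

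**Figure D3:**
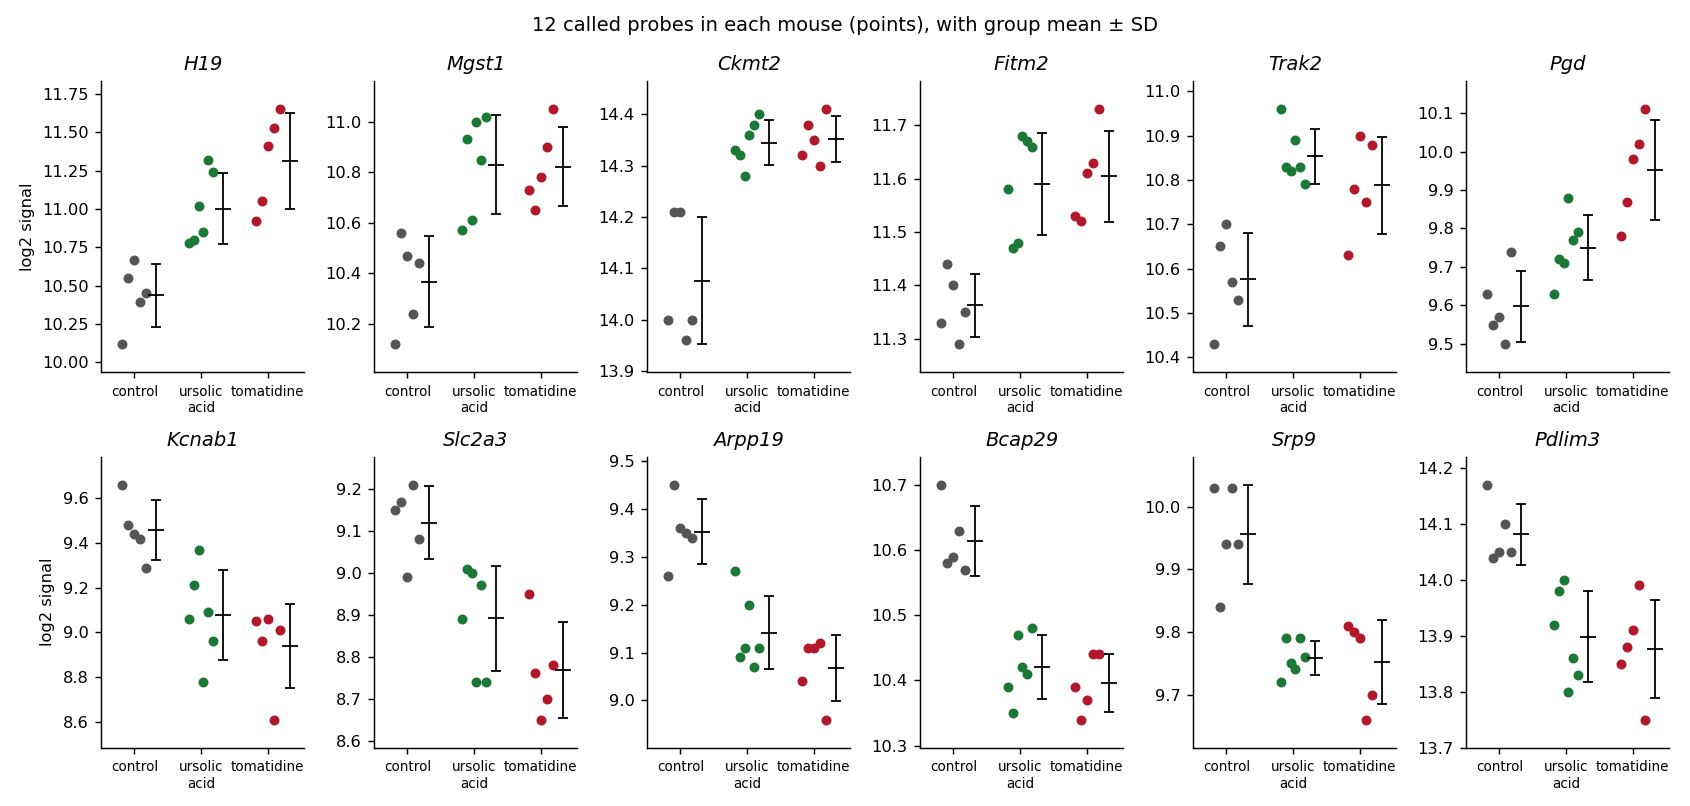
Log2 signal (vertical axes) of 12 called probes in each mouse, with the group mean ± SD beside the points. The top row holds 6 probes that rose and the bottom row 6 that fell, and each axis has its own range, so heights are not comparable between panels.

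The other called rises had varied roles. Fitm2, a protein of the endoplasmic reticulum needed to form lipid droplets, read 11.33, 11.44, 11.40, 11.29 and 11.35 in control and 11.53, 11.52, 11.61, 11.63 and 11.73 with tomatidine. With ursolic acid it ran from 11.47 through 11.62 to 11.68, above every control mouse. Fitm2 was higher by 0.23 ± 0.04 (SE), nearly the same with ursolic acid (0.23) and tomatidine (0.24). Ccnd3, which encodes cyclin D3, had 0.14 ± 0.03 by its brightest probe with no overlap between supplemented and control mice. Rnf44, a RING finger protein, had 0.15, Tm6sf1 had 0.14, and Ppp1r11, an inhibitor of protein phosphatase 1, had 0.14. The remaining called rises, Rhod (0.06) and Tardbp (0.04), came from probes with means of 8.14 and 7.98, near the lowest signals of the arrays.

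The smallest p of all probes belonged to Bcap29, a membrane protein of the endoplasmic reticulum, which was lower with both compounds. Its log2 signals were 10.70, 10.58, 10.59, 10.63 and 10.57 in control, 10.39, 10.34, 10.37, 10.44 and 10.44 with tomatidine, and 10.35 to 10.48 with ursolic acid, with a median of 10.41. Every supplemented mouse lay under the lowest control mouse. The pooled change of Bcap29 was -0.21 ± 0.03 (SE), or 1.15-fold lower (limma, adjusted p = 0.0144), and its dimmer probe also fell (-0.12, adjusted p = 0.159).

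Srp9 belongs to the signal recognition particle, which brings ribosomes to the endoplasmic reticulum. It read 10.03, 9.84, 9.94, 10.03 and 9.94 in control and 9.81, 9.80, 9.79, 9.66 and 9.70 with tomatidine. With ursolic acid it ran from 9.72 through 9.75 to 9.79, so that no supplemented mouse reached a control mouse. Pooled over both compounds, Srp9 had -0.20 ± 0.03 (SE, adjusted p = 0.0528), while a second, dim probe had -0.01. Dpm1, a subunit of dolichol-phosphate mannose synthase in the same membrane, had -0.08 (adjusted p = 0.0821). Of 35 measured genes of the signal recognition particle and entry into the endoplasmic reticulum, 6 fell (17.1%) and 0 rose, where 3.71% of all genes fell. Ssr3 and Ssr4, subunits of the translocon-associated protein complex, had -0.22 and -0.19. The count was 5 to 7 with any 1 mouse left out.

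The promoters of the called genes were read for short motifs. Windows from 250 bases before to 50 bases after the start site came from RefSeq (GRCm38.p6), and 12 of 16 called genes that rose and 27 of 39 that fell had one. The antioxidant response element, searched as TGACNNNGC on both strands, was found in 6 of the 12 (Ccnd3, Ckmt2, Mgst1, Mrps31, Pgd and Rnf44) and in 7 of the 27, and 13.99% of 27025 genes hold it in at least 1 window. The element TGATGCAA, bound by ATF4 with C/EBP partners, was found in 0 of either group, against 1.03% of all genes, and so was the element TCAAGGTCA of the ERR receptors, against 0.47%. The cAMP response element TGACGTCA was found in 0 and 2, against 2.03%, and the palindromic site of the mitochondrial regulator NRF1, on both strands, in 1 and 2, against 1.07%. A match is a run of letters and not a shown binding site, and its absence from these windows says nothing of the factor. The windows of the glutathione transferase and of the creatine kinase that rose without overlap, and of the signal recognition particle subunit that fell, are shown from 250 bases before the start site, with the antioxidant element in capitals on whichever strand it lies. They lie at chr6:138140277-138140526 on the plus strand for Mgst1, at chr13:91876886-91877135 on the minus strand for Ckmt2 and at chr1:182124487-182124736 on the plus strand for Srp9.
Mgst1: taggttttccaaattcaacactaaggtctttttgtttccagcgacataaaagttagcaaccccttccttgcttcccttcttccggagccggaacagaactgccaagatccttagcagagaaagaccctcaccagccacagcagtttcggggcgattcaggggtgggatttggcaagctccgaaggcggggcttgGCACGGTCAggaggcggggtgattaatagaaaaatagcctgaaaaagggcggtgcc
Ckmt2: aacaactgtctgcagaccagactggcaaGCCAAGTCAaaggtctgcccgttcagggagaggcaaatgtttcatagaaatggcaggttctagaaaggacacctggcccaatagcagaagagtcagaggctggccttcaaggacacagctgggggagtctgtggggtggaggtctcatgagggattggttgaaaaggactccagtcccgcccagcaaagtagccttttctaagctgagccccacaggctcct
Srp9: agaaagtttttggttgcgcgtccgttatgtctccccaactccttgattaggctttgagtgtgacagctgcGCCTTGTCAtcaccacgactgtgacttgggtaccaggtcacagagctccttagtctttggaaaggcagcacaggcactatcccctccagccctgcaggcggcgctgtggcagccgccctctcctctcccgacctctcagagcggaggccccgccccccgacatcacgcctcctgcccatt
In all 3 windows the element was read from the opposite strand, as GCACGGTCA, GCCAAGTCA and GCCTTGTCA, and its first base stands at -56, -222 and -180 relative to the start site. Srp9 fell while the other genes rose, so this pattern, with other letters at its free positions in each window, stood before genes of both directions.

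Several called genes act in protein synthesis. Lars, the leucyl-tRNA synthetase, read 9.31, 9.28, 9.40, 9.40 and 9.32 in control, 9.20, 9.19, 9.08, 9.14 and 9.19 with tomatidine, and 9.08 to 9.29 with ursolic acid, with a median of 9.18. Only 1 ursolic acid mouse reached the control range. Lars had a pooled change of -0.17 ± 0.03 (SE, adjusted p = 0.0821). Eif2a, which can deliver the initiator tRNA, had -0.16 (adjusted p = 0.0821), Eif4g2, an initiation factor, had -0.06 by a probe with a mean of 8.09 and 0.11, which did not pass, by its brighter probe, and Tsr3, which modifies the RNA of the small ribosomal subunit, had -0.23. The ribosomal protein genes Rpl22 and Rpl28 had -0.19 and -0.13 (adjusted p = 0.0821 for both).

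In the lists around them falls outnumbered rises. Of 59 measured cytosolic ribosomal protein genes 7 fell (11.9%) and 0 rose, with 2 called, Rpl22 and Rpl28. Their median was -0.01. Without control mouse 2 the count was 4. Of 38 measured genes in the list of initiation factors 3 fell (7.89%) and 0 rose, namely Eif4ebp1, Eif3c and Eif2s2. Brighter genes made up 28 of the 38, so the 3.71% of all genes that fell is a low yardstick. No result is drawn from this count. Eif4ebp1 encodes an inhibitor of initiation, so its fall is not that of an initiation factor. The probe of Eif2a was named through the supplementary tables of the study and is not in that count. Of 22 tRNA synthetases and their partners 3 fell (13.6%) and 0 rose, namely Lars, Nars and Aimp1. Nars, the asparaginyl-tRNA synthetase, had -0.20 with ursolic acid and -0.20 with tomatidine (adjusted p = 0.121), and Aimp1 had -0.14, with an unadjusted p of 0.036 without control mouse 1 and 0.0259 without control mouse 4.

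Of 35 measured ATF4 targets, 5 fell (14.3%), 2 rose (5.71%) and 28 did not pass, with a median of -0.00. None of the 35 was called. The called fall Lars, which the study counts among established ATF4 targets, is not in that list. The count of rises was 0 without control mice 1 or 4 and without tomatidine mice 3 and 4 together, 4 without tomatidine mouse 1, and 1 without any 1 of 10 others. Several of them, and of the initiation factors and tRNA synthetases above, had been named by the study from these arrays, so their direction is not independent evidence. Eif4ebp1, which encodes the inhibitor 4E-BP1 of cap-dependent initiation, read 10.44, 10.71, 10.53, 10.79 and 10.69 in control, 10.54, 10.40, 10.47, 10.36 and 10.38 with tomatidine, and 9.92 to 10.43 with ursolic acid, with a median of 10.21. All 6 ursolic acid mice lay under the control range, and 2 of the 5 tomatidine mice lay inside it. Its pooled change was -0.32 ± 0.08 (SE, adjusted p = 0.160). Eif2s2 and Eif3c, initiation factor subunits, had -0.19 and -0.15, and Ppp1r15a, which restores initiation after stress, had -0.17. Slc6a9, a glycine transporter, had -0.08 (unadjusted p = 0.0200, up to 0.0697 among the alternatives), and missed the threshold without 10 of the 16 mice, each left out alone. Atf4 itself had -0.14 and -0.03 by its 2 probes and Slc38a2, an amino acid transporter, had -0.02, -0.17 and 0.01 by its 3 probes in order of brightness (adjusted p = 0.614 for the second), and these did not pass.

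Gadd45a, an ATF4 target that has been tied to muscle atrophy, lay on the other side, as did Atf5 (0.23), a transcription factor related to ATF4. The brighter Gadd45a probe read 10.36, 9.80, 9.95, 10.04 and 10.96 in control, 9.76, 11.04, 11.07, 11.42 and 11.26 with tomatidine, and 10.29 to 11.62 with ursolic acid, with a median of 10.94. The groups overlapped widely. The pooled change of Gadd45a was 0.69 ± 0.27 (SE, adjusted p = 0.384), its unadjusted p of 0.0201 went up to 0.0618 among the alternatives, and without 12 of the 16 mice, each left out alone, it missed the threshold. The other Gadd45a probe had 0.40 and did not pass. Of 24 measured atrophy ligases and FoxO genes, 2 fell, 1 rose and 21 did not pass. The falls were Trim54 (-0.22) and Trim63 (-0.28), the muscle-specific RING finger proteins, and without control mouse 2 the unadjusted p of Trim63 was 0.0306.

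The proteasome list held 9 genes that fell (21.4% of 42) and 1 that rose, where 3.71% of all genes fell. None of the 9 was called. Psmd8, a subunit of the regulatory particle, read 12.24, 12.33, 12.14, 12.27 and 12.20 in control, 12.10, 11.98, 11.96, 11.87 and 11.71 with tomatidine, and 11.88 to 12.16 with ursolic acid, with a median of 11.99. A pair of ursolic acid mice reached into the control range. For Psmd8 the pooled change was -0.26 ± 0.06 (SE, adjusted p = 0.116), and those of Psma3 and Psmb7, subunits of the core, were -0.25 and -0.16. The dimmer Psmb7 probes overlapped the control mice widely. The brighter of them ran from 12.15 to 12.38 in control, 12.21 to 12.34 with tomatidine and 12.18 to 12.39 with ursolic acid. The other ran from 10.32 to 10.64, 10.16 to 10.68 and 10.26 to 10.54. The member that rose was Pomp (0.13), an assembly factor. The count of falls was 5 without control mouse 3 and 5 without tomatidine mice 3 and 4, and both fits had 0 rises. The mean of the list ran from 10.64 to 10.70 in control, from 10.59 to 10.62 with tomatidine and from 10.58 to 10.67 with ursolic acid.

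Glucose handling and excitability held some of the larger falls. Slc2a3, which encodes the glucose transporter GLUT3, read 9.15, 9.17, 8.99, 9.21 and 9.08 in control, 8.95, 8.76, 8.65, 8.70 and 8.78 with tomatidine, and 8.74 to 9.01 with ursolic acid, with a median of 8.93. The tomatidine mice all lay under the control mice, and 2 ursolic acid mice reached the lowest of them. This gave Slc2a3 a pooled change of -0.29 ± 0.06 (SE, adjusted p = 0.0821). Gyg, which encodes glycogenin, the primer of glycogen synthesis, had -0.27 ± 0.05 (adjusted p = 0.0860), and its dimmer probe had -0.22 and did not pass. Aspscr1, which tethers vesicles of the glucose transporter GLUT4 inside the cell, had -0.15 ± 0.02 by its called probe with no overlap between groups (adjusted p = 0.0528), and -0.10 by its brightest probe (adjusted p = 0.355). Neither gene is in the list that follows. Of 32 measured genes of glycolysis, glycogen and glucose transport, 3 fell (9.38%) and 1 rose, Pfkl (0.19), the liver phosphofructokinase. Without control mouse 3 the count of falls was 5. The largest pooled change among these falls was that of Fbp2, the muscle fructose bisphosphatase, at -0.44 (adjusted p = 0.257), and Phkb, a subunit of phosphorylase kinase, had -0.30.

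Kcnab1, an accessory subunit of voltage-gated potassium channels, had the largest called fall. By the brighter of its called probes it read 9.66, 9.48, 9.44, 9.42 and 9.29 in control, 9.05, 8.96, 9.06, 8.61 and 9.01 with tomatidine, and 8.78 to 9.37 with ursolic acid, with a median of 9.08. A single ursolic acid mouse reached the control range. Kcnab1 had a pooled change of -0.45 ± 0.09 (SE), or 1.37-fold lower (adjusted p = 0.0860), and -0.37 by the second called probe (adjusted p = 0.0821), while the third probe, near the lowest signals, had 0.00. Fxyd1, the phospholemman that regulates the sodium pump, had -0.29 ± 0.05 by its dimmer probe (adjusted p = 0.0821), while its brighter probe had 0.03 and did not pass.

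Some genes of the contractile apparatus and of its calcium control fell, and most did not pass. Pdlim3, which binds alpha-actinin at the Z disc, read 14.17, 14.04, 14.05, 14.10 and 14.05 in control, 13.85, 13.88, 13.91, 13.99 and 13.75 with tomatidine, and 13.80 to 14.00 with ursolic acid, with a median of 13.89. No supplemented mouse reached a control mouse. Pdlim3 had a pooled change of -0.20 ± 0.04 (SE, adjusted p = 0.0821), with -0.20 also by its dimmer probe (adjusted p = 0.347), and that of Mylk2, the myosin light chain kinase of skeletal muscle, was -0.11 by a dim probe (adjusted p = 0.0794). Of 21 measured genes of the Z disc, M band and titin, 3 fell (14.3%), 1 rose and 17 did not pass. The falls were Pdlim3, the M band protein gene Myom1 (-0.20) and Myoz1, which also counts among the fast-fibre genes, and the rise was Actn2 (0.24), an alpha-actinin, which missed the threshold without 11 of the 16 mice, each left out alone. Of 14 measured genes of excitation-contraction coupling 4 fell (28.6%) and 0 rose. These were Cacng1 (-0.30) and Cacnb1 (-0.14), subunits of the calcium channel, Stac3 (-0.15), which binds the channel, and Jsrp1 (-0.16), which sits at the junction with the sarcoplasmic reticulum. Without control mouse 4 the unadjusted p of Stac3 was 0.0269, and the count was 2 without that mouse and 2 without tomatidine mice 3 and 4. Of 14 measured fast-fibre contractile genes 4 fell (28.6%) and 10 did not pass, with Mybpc2 at -0.12, Tnni2 at -0.09, Myoz1 at -0.07 and Myh4 at -0.21. Without control mice 1, 4 or 5 the count was 1, 2 and 2. Myh4, the fast myosin heavy chain, had an unadjusted p up to 0.0698 and missed the threshold without 11 of the 16 mice, each left out alone.

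The 11 measured slow-fibre genes had a median of 0.28, above that of every other list, and 0 of them rose or fell, although 10 lay above 0. Their mean ran from 9.996 to 11.12 in control, from 10.20 to 11.06 with tomatidine and from 10.81 to 11.32 with ursolic acid. Control mice 1 and 5 and tomatidine mouse 4 lay low, at 9.996, 10.19 and 10.20, and all others were at 10.73 or more. With 1 mouse left out the median ran from 0.08, without control mouse 1, to 0.46, without control mouse 2.

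The other called falls had varied roles. Arpp19, an inhibitor of protein phosphatase 2A, read 9.26, 9.45, 9.36, 9.35 and 9.34 in control, 9.04, 9.11, 9.11, 9.12 and 8.96 with tomatidine, and 9.07 to 9.27 with ursolic acid, with a median of 9.11. A single ursolic acid mouse reached the lowest control mouse. The pooled change of Arpp19 was -0.25 ± 0.04 (SE, adjusted p = 0.0528). The kinase genes Mapk9 (JNK2) and Map2k2 (MEK2) had -0.23 and -0.12, the arginine methyltransferase Prmt1 had -0.14, and the splicing or transcription proteins Htatsf1, Ino80c and Zeb1 had -0.20, -0.15 and -0.13. The probe of Ubb-ps, a pseudogene of the polyubiquitin gene, had -0.10, and whether it also reads the parent gene was not tested. A further 10 called probes had pooled changes from -0.24 to -0.10, those of 2810428I15Rik, Spag7, Krba1, Efcab14, B230219D22Rik, Nme3, Slc35c2, Ttc3, Sc5d and Pou6f1. The weakest called falls, from -0.03 to -0.08, were those of Ints9, Lyzl4, Simc1, Slu7 and Arhgap35, beside Eif4g2 and Dpm1 above.

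Some genes of the respiratory chain rose by small amounts, and most did not pass. Of 43 measured genes of complexes II to V, 10 rose (23.3%) and 0 fell, where 2.98% of all genes rose, and the count was 9 to 11 with any 1 mouse left out and 11 without tomatidine mice 3 and 4. Atp5j was the called member. Atp5g1, a subunit of the ring of ATP synthase, read 14.21, 14.34, 14.34, 14.25 and 14.33 in control, 14.42, 14.46, 14.36, 14.45 and 14.56 with tomatidine, and 14.35 to 14.54 with ursolic acid, with a median of 14.46, and no supplemented mouse overlapped a control mouse. Its pooled change was 0.16 ± 0.03 (SE, adjusted p = 0.121). Cox6a1 and Cox8a, subunits of cytochrome oxidase, had 0.24 and 0.21. The median of the list was 0.05, with 0.04 for each compound.

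Of 37 measured genes of complex I, 8 rose (21.6%) and 1 fell, led by Ndufc2 and Ndufa6 at 0.16 each, and the fall was that of Ndufb11 (-0.10), while 0 fell without control mouse 2 and 2 without control mouse 4. Without control mouse 1 the count of rises was 4, and without tomatidine mice 3 and 4 it was 5. Of 76 mitochondrial ribosomal proteins 12 rose (15.8%) and 6 fell (7.89%), so the list went both ways. Besides the called Mrpl3 and Mrps31, Mrpl42 and Mrpl28 had 0.18 and 0.15 (adjusted p = 0.122 and 0.128). Of 25 genes of the citric acid cycle and pyruvate dehydrogenase 2 rose (8%) and 0 fell. Pdp2, a phosphatase that activates pyruvate dehydrogenase, had 0.35 (adjusted p = 0.173), and Pdha1, a subunit of that enzyme, had 0.11. The count was 1 without any 1 of control mice 1, 4 and 5, tomatidine mice 3 and 5 and ursolic acid mice 1 and 6, and 3 at most.

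Of 27 measured genes of fatty acid uptake and beta-oxidation, 5 rose (18.5%) and 0 fell. These were Decr1 (0.22), Cpt2 (0.27), Acaca (0.24), Acaa2 (0.39) and Etfa (0.20). Acaca makes malonyl-CoA, which restrains the entry of fatty acids into mitochondria, and the other four act in oxidation. Acaca had 0.10 with ursolic acid and 0.37 with tomatidine, so its rise was mostly that of tomatidine. The dimmer Acaa2 probes had 0.44, 0.39 and, by the dimmest, 0.02 (limma, unadjusted p = 0.867). Without control mouse 1 the count was 3, and the unadjusted p of Acaa2 was 0.0264. Control mouse 1 was the lowest control mouse for Cpt2 (10.32) and Acaa2 (10.22), as it was for the mean of the slow-fibre list, and the part of fibre type in these values was not tested. Of 27 genes of fatty acid, triglyceride and sterol synthesis, 8 rose (29.6%) and 0 fell, and without control mouse 4 the count was 4, and without control mouse 3 it was 5. The called fall Sc5d (-0.11, adjusted p = 0.0989), a desaturase of sterol synthesis, is not in that list. Nceh1, a hydrolase of cholesterol esters, read 9.76, 10.39, 10.43, 10.13 and 10.19 in control, 10.61, 10.47, 10.75, 10.75 and 10.85 with tomatidine, and 10.36 to 10.76 with ursolic acid, with a median of 10.53. Control mice 2 and 3 lay above the lowest ursolic acid mouse. Nceh1 had a pooled change of 0.45 ± 0.10 (SE, adjusted p = 0.122), and Acss2, which makes acetyl-CoA from acetate, had 0.28.

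Secreted factors of muscle were higher in 3 of 22 measured genes (13.6%) and lower in 0. The count was 2 without any 1 of control mice 1, 3, 4 and 5, tomatidine mice 3, 4 and 5 and ursolic acid mice 1, 5 and 6. It was 4 at most. Fndc5, the precursor of irisin, had 0.42 by each of its probes (adjusted p = 0.128 and 0.165), and its brighter probe read 9.58, 10.19, 10.28, 9.98 and 9.88 in control and 10.59, 10.31, 10.55, 10.08 and 10.54 with tomatidine. With ursolic acid it ran from 10.26 through 10.38 to 10.56, so that control mice 2 and 3 overlapped the supplemented mice. Il15, a cytokine made by muscle, had 0.31 ± 0.06 by its brightest probe (adjusted p = 0.115). Its values were 9.09, 9.47, 9.41, 9.17 and 9.46 in control, 9.63 to 9.68 with tomatidine and 9.43 to 9.73 with ursolic acid. Tfrc, the transferrin receptor, takes up iron and is no secreted factor. Tfrc rose by both probes, 0.30 and 0.25 (limma, adjusted p = 0.116 and 0.185). The changes were 0.18 and 0.12 for ursolic acid and 0.42 and 0.39 for tomatidine. The study had named Fndc5, Il15, Tfrc and Ckmt2 from these arrays.

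**Figure D4:**
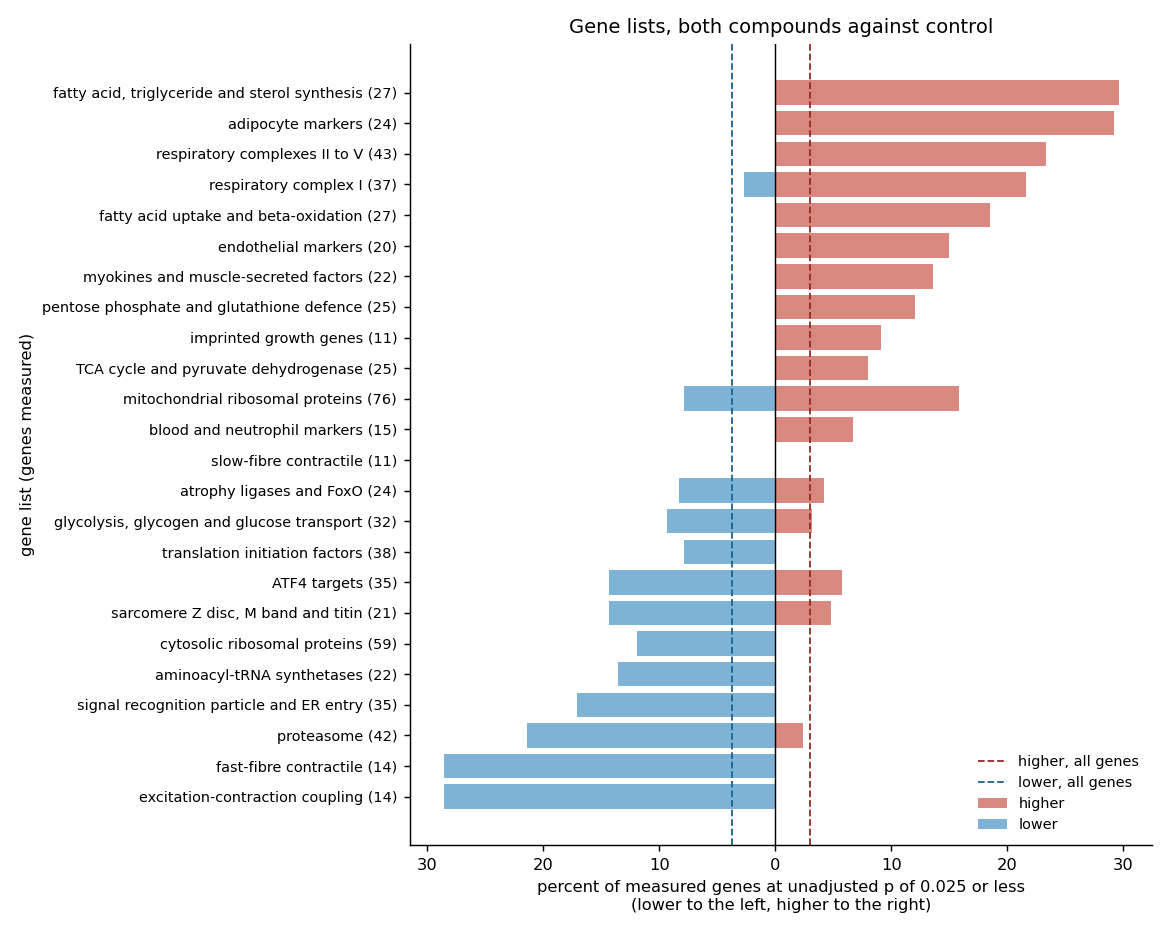
Percent of the measured genes of each list that rose (right) or fell (left) at an unadjusted p of 0.025 or less, with the number measured in parentheses. The dashed lines mark the 2.98% and 3.71% of all 16590 genes that rose or fell, and the slow-fibre list has no bar because 0 of its genes passed. Dim probes passed less often than brighter ones, so these lines lie low for lists of bright genes.

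Markers of other cell types moved beside these lists, and their part in the results was not tested. Of 24 measured adipocyte markers 7 rose (29.2%) and 0 fell, with Cidea (0.20), Adig (0.39) and Cyp2e1 (0.90) among them. The mean of the list ran from 9.26 to 9.51 in control, from 9.27 to 9.50 with ursolic acid and from 9.39 to 9.64 with tomatidine. Of its defining markers, Cidec had a mean of 8.54 and rose by 0.28, with 0.07 for ursolic acid and 0.49 for tomatidine. Adipoq and Lep had means of 9.21 and 8.71 and changes of 0.25 and -0.16 that did not pass, and Plin1, Fabp4 and Retn had means of 8.02, 7.98 and 7.99, near the lowest signals. Without control mouse 4 the count was 2, and without control mice 1, 3 or 5 it was 4. Thrsp, which promotes fat synthesis and also stands in the list of fat synthesis, had 0.33 with tomatidine and 0.10 with ursolic acid. Of 20 endothelial markers 3 rose (15%), 0 fell and 19 lay above 0, with a median of 0.09 and Eng at 0.28. The count was 6 without tomatidine mouse 4 and 5 without ursolic acid mouse 3. It was 2 without any 1 of control mice 1, 4 and 5, tomatidine mice 2 and 5 and ursolic acid mice 4, 5 and 6. The mean of the endothelial markers ran from 9.08 to 9.22 in control, 9.14 to 9.33 with tomatidine and 9.13 to 9.31 with ursolic acid. Of 15 blood and neutrophil markers 1 rose, the haemoglobin gene Hba-a1 (0.60, unadjusted p = 0.0224, up to 0.0874 among the alternatives), and it missed the threshold without 11 of the 16 mice, each left out alone. Macrophage, T and B cell and Schwann cell markers, interferon-stimulated genes and circadian clock genes had 0 members that rose or fell among 21, 12, 11, 24 and 18 measured.

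The pooled call drew on both compounds for nearly all of its probes. Of the 57 called probes, 56 had an unadjusted p of 0.025 or less with each compound taken alone, which is what a call on their mean favours and no separate evidence, since both comparisons share the 5 control mice. At an adjusted p of 0.1, ursolic acid alone called 2 probes (0.00778%) and tomatidine alone 25 (0.0973%), and 35 of the 57 were called by neither alone. The median SE of brighter probes was 0.04 for the pooled change and 0.05 for each compound. The exception was Ints9, with -0.01 for ursolic acid and -0.06 for tomatidine and an ursolic acid minus tomatidine difference of 0.06 (limma, adjusted p = 0.0259, where 3 of all probes, 0.0117%, differed at 0.1), so its pooled call did not come from a shared change. All 11 supplemented mice lay above the control mice for 9 called probes and below them for 13, against 21 (0.0817%) and 25 (0.0973%) of all probes.

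**Figure D5:**
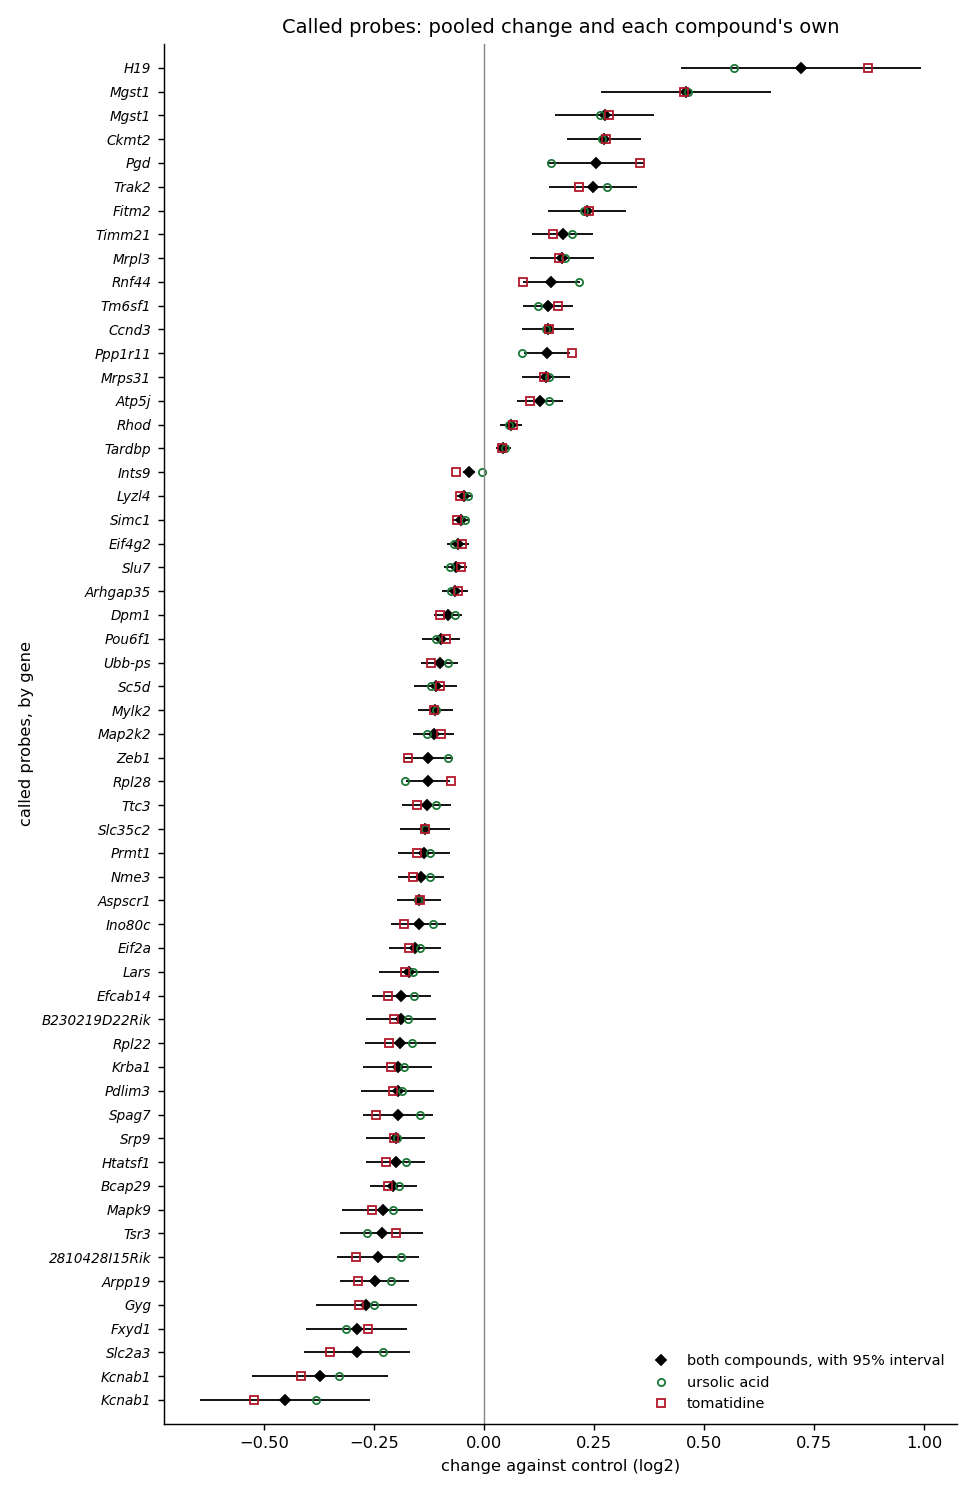
Change against control (horizontal axis, log2) of the 57 called probes, with black diamonds and 95% intervals for both compounds pooled, green circles for ursolic acid and red squares for tomatidine. For Mgst1, Ckmt2, Srp9 and Aspscr1 the compounds nearly coincide, and for Pgd, Ppp1r11, Rnf44, Rpl28, Zeb1 and Ints9 they lie apart.

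Ursolic acid and tomatidine differed at an unadjusted p of 0.025 or less for 6 of the 57 called probes, or 10.5%, and for 756 of all probes (2.94%). Pgd (-0.20) and Ppp1r11 (-0.12) were lower with ursolic acid than with tomatidine, and Rpl28 (-0.10) had the larger fall with ursolic acid. Rnf44 (0.13) was higher with ursolic acid, and Zeb1 (0.09) fell less with it. Ints9 (0.06) fell with tomatidine and did not pass with ursolic acid. For Mgst1 the difference was 0.01 with a 95% interval from -0.21 to 0.23, for Ckmt2 -0.01 from -0.10 to 0.09, for Srp9 0.01 from -0.07 to 0.08, and for Bcap29 0.03 from -0.03 to 0.09. These intervals show how far the compounds could still differ in these genes. H19 had a difference of -0.31, from -0.61 to 0.00. The doses differ, so these are differences between the 2 diets as given.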

How the data were processed

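Quadriceps RNA from 16 mice was hybridised to Illumina Mouse Ref-8 version 2.0 BeadChips, 1 mouse to an array, and the number of arrays limits the precision. The authors extracted signals with BeadStudio and deposited log2 signals per probe. No version, background correction or normalization is given in the sources used here. The lowest signals lie at a floor that compresses changes of dim probes. The deposited log2 values entered lmFit and eBayes of limma (version 3.58.1, under R 4.3.3), with 1 mean per group over all 16 arrays, with the contrast of both compounds' mean minus control. Benjamini-Hochberg adjustment ran over all 25697 probes. The thresholds were those of the study's methods, an adjusted p of 0.1 and an unadjusted p of 0.025, both 2-sided. The script was tested on simulated data.

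Probes were named from the platform annotation, 23962 by gene ID and 9 by accession, and 156 through the study's supplementary tables, while 1563 stayed unnamed. The brightest probe stood for a gene in the 41 lists. Named genes were the 15 largest rises and falls among called probes, the 5 smallest p in each direction, 2 to 4 members of each list described, and genes the study names. The members and lists were chosen with earlier results of these data known. Alternatives changed the normalization, the filter on dim probes, the scale, the weights, the test, the block and the mice. Promoters were searched with Python 3.11.15.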

Additional observations from a re-analysis of the deposited data

Results flagged for a closer look

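Dixon's test, by which chance flags about 1 in 20 groups, was run on 113 named probes in 339 groups. It flagged a mouse as apart from its group 13 times, no more often than that, and some mice more than once. Among called genes, these were tomatidine mouse 4 for Kcnab1 (8.61, the next mouse at 8.96) and Tm6sf1 (8.42, next 8.33), ursolic acid mouse 3 for Htatsf1 (12.08, next 11.92), and for Ppp1r11 ursolic acid mouse 5 (10.43, next 10.51) and tomatidine mouse 5 (10.72, next 10.63). Tomatidine mouse 1 lay low for both Gadd45a probes (9.76, next 11.04, and 9.16, next 10.20) and for Tkt (8.84, next 8.95), and high for Mars1 (8.5, next 8.41). The others were Acaca (9.23, next 9.0, ursolic acid mouse 5), Igf2 (10.82, next 10.25) and Acss2 (10.15, next 10.33), both in ursolic acid mouse 3, and Cacng1 (10.81, next 11.18, tomatidine mouse 3).

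The compounds differed, by limma's test of the difference at an unadjusted p of 0.025 or less, for 14 named probes. Ursolic acid minus tomatidine was -0.817 for Cyp2e1, -0.272 and -0.241 for the Tfrc probes, -0.263 for Acaca, -0.227 for Thrsp, -0.224 for Tkt and -0.202 for Pgd. It was -0.237 for Eif4ebp1, -0.196 for Rpl5, -0.115 for Ppp1r11 and -0.104 for Rpl28. It was above 0 for Rnf44 (0.127), Zeb1 (0.0918) and Ints9 (0.0573). The pooled value of these probes is a mean of unequal changes.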

How the results depend on the processing

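Of the 57 called probes, 56 remained called with each array centred on its median, 48 with quantile normalization, 57 with array weights and 46 with each mouse of equal weight. With an intensity trend and robust estimates 33 of them remained among 80 called probes, with the lowest signal subtracted 10 remained, and with the methods' t-test 6. Of the 44 that could be tested among brighter probes, 44 remained. Each called probe that was tested kept its direction under all alternatives, including those that leave out a mouse, which selection in the same mice favours. Where probes with a mean of 8.5 or more alone were fitted, 777 of 5949 passed the unadjusted threshold. The count of called probes was 236 in that fit. It was 11 with the lowest signal subtracted and 16 added, where rises made up 53.1% of the 1345 probes at the unadjusted threshold against 42.6% of the 1566. The methods' t-test gave 6 (1453 unadjusted), and the same test with unequal variances gave 0 (1409 unadjusted). Leaving out 1 mouse gave 1 to 188 called probes and 1183 to 1803 at the unadjusted threshold, and leaving out tomatidine mice 3 and 4 gave 4. The cause of these differences in count was not tested. With all probes of each gene, 8 probes of fatty acid oxidation rose and 5 of tRNA synthetases fell.

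Mice with the same number deviated together with r over 0.1 in 1 of 10 pairs of a control with a supplemented mouse and in 4 of 5 pairs of an ursolic acid with a tomatidine mouse (-0.125 to 0.372), so not every pair passed and the numbers were not taken to pair the mice. With the replicate block 41 probes were called, 15 of them among the 57, and 1446 passed the unadjusted threshold. For the difference between the compounds, an alternative chosen after the data were seen, the block gave 11 of the 57 at the unadjusted threshold, the same 6 among them, and H19 had -0.35 (unadjusted p = 0.00594). Of all probes 757 passed it and 0 were called at an adjusted p of 0.1 (limma), so the call for Ints9 was lost. With 5 to 6 arrays a group and most probes near the lowest signal, small changes of dim probes are bounded poorly.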
